A study of Mus musculus with 11 samples.

Results

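Chromatin openness was compared between 2 mouse embryonic stem cell lines that carry the C57BL/6J version of an interval on chromosome 13 but differ in the rest of their genome. ATAC-seq counts were deposited for 248336 genomic regions in 11 libraries of 4 lines, and the comparison uses the 6 libraries of B6 and D2-13B6, 3 of each. All regions belong to it: 220686 lie off chromosomes 11 and 13, 15671 lie on chromosome 11 and 11979 on chromosome 13, and 246840 regions had enough reads to be tested. B6 is the C57BL/6J line B6 5-1. D2-13B6 is line XE 2-4, a DBA/2J background with a C57BL/6J segment of chromosome 13, named D2.B6-(rs29224292-rs13469455)/Bakr in the sample labels; the description of the series gives rs51756099 as the segment's second marker. The other 2 lines make the same change of background with the DBA/2J version of the interval in both: D2 (DBA/2J, line D2 5-5, 3 libraries) and B6-13D2 (B6.D2-(rs30079041-rs51756099)/Bakr, line QJ 6-1, 2 libraries). All lines grew in medium with 15% serum, LIF, 1 µM PD0325901 (a MEK inhibitor) and 3 µM CHIR99021 (a GSK3 inhibitor), and each library was made from 100000 cells. Each genotype is 1 cell line, so genotype and line cannot be told apart, and the libraries of a line are technical replicates: the p-values below measure the spread between libraries of a line, not between animals or independent derivations.

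ATAC-seq uses the transposase Tn5, which inserts sequencing adapters where DNA is not wrapped tightly, so that open promoters and enhancers collect reads. In embryonic stem cells the pluripotency factors POU5F1, SOX2 and NANOG, with ESRRB, KLF and TFCP2L1 proteins, bind many enhancers. AP-1 is a dimer of FOS and JUN family proteins that binds a short palindrome and opens distal sites in many differentiated and growth-stimulated cells. YY1 binds start sites of genes and of some transposable elements. Mouse strains differ in sequence and in the transposable elements they carry, and KRAB zinc finger proteins, which silence such elements, vary between strains.

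The sequences below carry the main contrasts of the comparison: the first 4 are windows of 81 bases in regions more open in D2-13B6, with the AP-1 letters TGANTCA in capitals. All are from the GRCm38 reference, which is C57BL/6J sequence, on the plus strand; the sequence of DBA/2J at these places was not analysed here.
Wdr70 intron, chr15:7878131-7878211: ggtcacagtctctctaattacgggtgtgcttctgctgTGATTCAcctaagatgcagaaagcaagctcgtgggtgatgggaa
Vgll3 intron, chr16:65818920-65819000: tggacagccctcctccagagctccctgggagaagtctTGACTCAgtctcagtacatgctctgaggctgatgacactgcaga
Trhr, 19770 bp from its start, chr15:44176165-44176245: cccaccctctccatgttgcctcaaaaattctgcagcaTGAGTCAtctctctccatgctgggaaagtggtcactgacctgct
Klf6, 23607 bp from its start, chr13:5837494-5837574: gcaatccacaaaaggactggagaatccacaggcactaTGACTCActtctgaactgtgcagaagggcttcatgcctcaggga

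The next 3 windows lie in regions less open in D2-13B6 near genes of the pluripotency network. Capitals mark a single motif in each window. It is the octamer ATGCAAAT at Klf4, the SOX letters ACAATGG on the minus strand at Tfcp2l1, and the ESRRB letters TCAAGGTCA on the minus strand near Klf2. The Tfcp2l1 window also holds the ESRRB letters on the plus strand, left in lower case.
Klf4 octamer, chr4:55519781-55519861: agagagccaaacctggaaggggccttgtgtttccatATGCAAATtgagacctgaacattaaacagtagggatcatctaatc
Tfcp2l1 SOX, chr1:118663239-118663319: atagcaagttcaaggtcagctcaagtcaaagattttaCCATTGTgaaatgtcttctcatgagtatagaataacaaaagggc
Klf2 ESRRB, chr8:72349102-72349182: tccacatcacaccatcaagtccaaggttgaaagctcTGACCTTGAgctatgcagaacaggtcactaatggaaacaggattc

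The last pair lies in repeats that were nearly closed in D2-13B6 and open in B6. Capitals mark the YY1 letters CAAGATGGC, on the minus strand in the first and on the plus strand in the second. The AP-1 windows are some of those from higher regions that were named by smallest p-value and hold the motif. They were thus chosen by their values and by the motif. Other higher regions named below, near Cd44 and in Asap1 and Sv2c for instance, hold no match in their central 300 bp. All other windows were picked after their values were seen.
Gm37386 YY1, chr4:8443032-8443112: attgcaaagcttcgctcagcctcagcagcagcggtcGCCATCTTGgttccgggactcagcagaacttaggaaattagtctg
Gm43383 YY1, chr5:61601352-61601432: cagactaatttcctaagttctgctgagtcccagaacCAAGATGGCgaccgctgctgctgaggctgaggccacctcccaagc

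The background difference was wide. Of 246840 regions tested, 102971 (41.7%) differed between D2-13B6 and B6 by edgeR's quasi-likelihood test (adjusted p under 0.05), 53419 higher in D2-13B6 (21.6%) and 49552 lower (20.1%). Off chromosomes 11 and 13, 90865 of 219323 differed (41.4%), 46902 higher (21.4%) and 43963 lower (20%). The 2 directions were alike in number but not in size: 29079 regions were higher by 2-fold or more against 15799 lower, and 11498 were higher by 4-fold or more against 2501 lower. In 84572 of the called regions the normalised values of the 3 D2-13B6 libraries did not overlap those of the 3 B6 libraries, as they did not in 106828 of all regions tested off these chromosomes. Scaling each library by its total count in place of TMM factors shifted all fold changes, with -0.29 added to their log2 median, and took the share of calls that were higher from 51.9% to 32.5%. Directions below are relative to the TMM scale.

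The 6 libraries held between 15198496 and 43042955 counts each, 15198496 to 27293140 in B6 and 29172484 to 43042955 in D2-13B6, so D2-13B6 was the deeper group. Counts in regions that hold a gene start were 33.3% to 34.6% of the total in B6 and 36.4% to 41.2% in D2-13B6. Every pair of libraries of a line differed by more than sampling noise (chi-square per degree of freedom 2.06 to 6.33 over 10 pairs). The part of depth and of this share in the results was not tested beyond the thinned counts given in the closing section.

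The regions with the largest gains were weak in B6 and took intermediate values in D2. Over the 11498 regions higher by 4-fold or more off chromosomes 11 and 13, the median was 1.34 normalised counts (CPM, scaled to the library size) in B6, 1.28 in B6-13D2, 3.03 in D2 and 7.14 in D2-13B6. These are medians of a set chosen by the contrast of D2-13B6 with B6, so the other 2 lines carry the information. The 2501 regions lower by 4-fold or more had median CPM of 1.29 for B6 and 1.03 for B6-13D2, against 0.177 for D2-13B6 and 0.164 for D2. In the lower class the medians of D2 and D2-13B6 were thus both too low to differ by much. In the higher class the median was smaller in D2 than in D2-13B6. The class was chosen by values of D2-13B6, which enlarges that gap.

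The contrast of D2 with B6-13D2 shares no library with that of D2-13B6 and B6, and sets the 2 backgrounds against each other in lines that both carry the DBA/2J interval. Each contrast rests on its own pair of lines, so line and interval cannot be told apart. It called 46459 regions (18.8%). Off chromosomes 11 and 13, 34256 regions were called in both comparisons and 34070 of them had the same sign, 99.5%; these were 37.5% of the regions called between D2-13B6 and B6 and 82.1% of those called between D2 and B6-13D2. Across regions the 2 log2 fold changes had a Pearson r of 0.714 and a Spearman rho of 0.637, as a description over 219323 regions that are not independent. Regions called higher had a median log2 fold change of 1.22 for D2-13B6 minus B6 and 0.63 for D2 minus B6-13D2, and regions called lower -0.88 and -0.41. The first of each pair is the contrast that chose the regions, which enlarges it.

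The difference between the background differences was tested itself, as (D2-13B6 minus B6) minus (D2 minus B6-13D2). Off chromosomes 11 and 13 it passed in 13688 of 219323 regions (6.24%), 9789 of them positive and 3899 negative. On chromosome 11 it passed in 947 of 15644 (6.05%), 926 positive and 21 negative. On chromosome 13 it passed in 1507 of 11873 (12.7%), 510 positive and 997 negative. Over all chromosomes it passed in 16142 of 246840 regions (6.54%), 11225 of them positive and 4917 negative. The count is 4743 without replicate 2 of B6-13D2, 6471 without its replicate 1, 8229 without replicate 1 of D2, 8939 without replicate 1 of B6 and 29017 without replicate 3 of D2-13B6. The count for D2 against B6-13D2 is 24644 without replicate 2 of B6-13D2 and 24721 without its replicate 1.

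**Figure D1:**
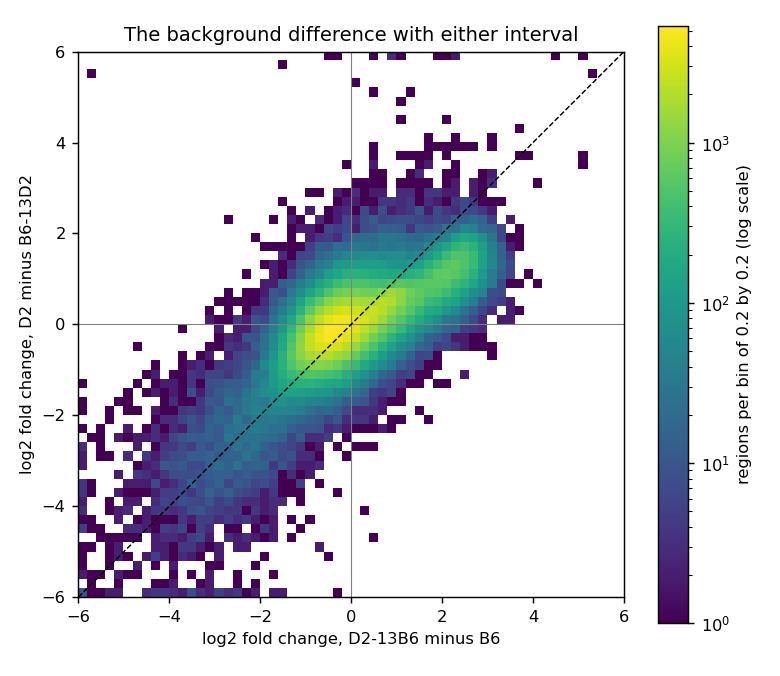
Log2 fold change of each region off chromosomes 11 and 13 for D2-13B6 minus B6 (x axis) against D2 minus B6-13D2 (y axis), as the number of regions in each bin of 0.2 by 0.2 on a log colour scale; values past 6 in either direction are drawn at the edge. The cloud runs from lower left to upper right with r 0.714, and on the right its dense part lies below the dashed line of equal values.

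Chromosomes 11 and 13 moved as wholes. Of 15644 regions tested on chromosome 11, 5568 differed (35.6%), 4322 of them higher (27.6%) and 1246 lower (7.96%). Of 11873 on chromosome 13, 6538 differed (55.1%), 2195 higher (18.5%) and 4343 lower (36.6%). With the median of each of these chromosomes centred per library, the share of calls that were higher went from 77.6% to 51.4% on chromosome 11 and from 33.6% to 51.0% on chromosome 13. With total counts it was 50.2% on chromosome 11 and 22.7% on chromosome 13.

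Chromosome 11 took 7.77% to 7.86% of the counts in the B6 libraries and 8.63% to 8.94% in the D2-13B6 libraries, means of 7.81% ± 0.0454 and 8.77% ± 0.157 (SD, n = 3 each). Chromosome 13 took 4.07% to 4.10% in B6 and 3.56% to 3.73% in D2-13B6, 4.09% ± 0.0126 and 3.63% ± 0.0878 (SD, n = 3 each). Neither pair of ranges overlapped. By exact permutation over libraries (two-sided) p was 0.1 for both, the smallest that 3 against 3 allows (adjusted p = 0.133 over 4 chromosomes). The share of chromosome X was 1.56% in B6 and 1.53% in D2-13B6 (exact permutation p = 0.7), and that of Y 0.211% and 0.0510% (exact permutation p = 0.1).

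The shift ran along the whole of both chromosomes. In bins of 2 Mb with at least 20 tested regions, the median log2 fold change on chromosome 11 ran from -0.07 to 0.34 and was above 0 in 56 of 60 bins. On chromosome 13 it ran from -1.09 to -0.03, above 0 in 0 of 60 bins and below -0.3 in 53. On the other autosomes it was above 0 in 168 of 1096 bins. The median over chromosome 13 was -0.50 for D2-13B6 minus B6, -0.01 for D2 minus B6-13D2, 0.01 for D2 minus B6 and 0.39 for D2 minus D2-13B6. On chromosome 11 the same medians were 0.15, -0.04, -0.06 and -0.27. The last 2 comparisons share libraries with the first 2, so these values are given side by side only. The medians far from 0 are those of the contrasts that include D2-13B6. Since D2-13B6 is 1 line, its genotype, its copy number of these chromosomes, which was not measured, and the line itself cannot be told apart here.

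**Figure D2:**
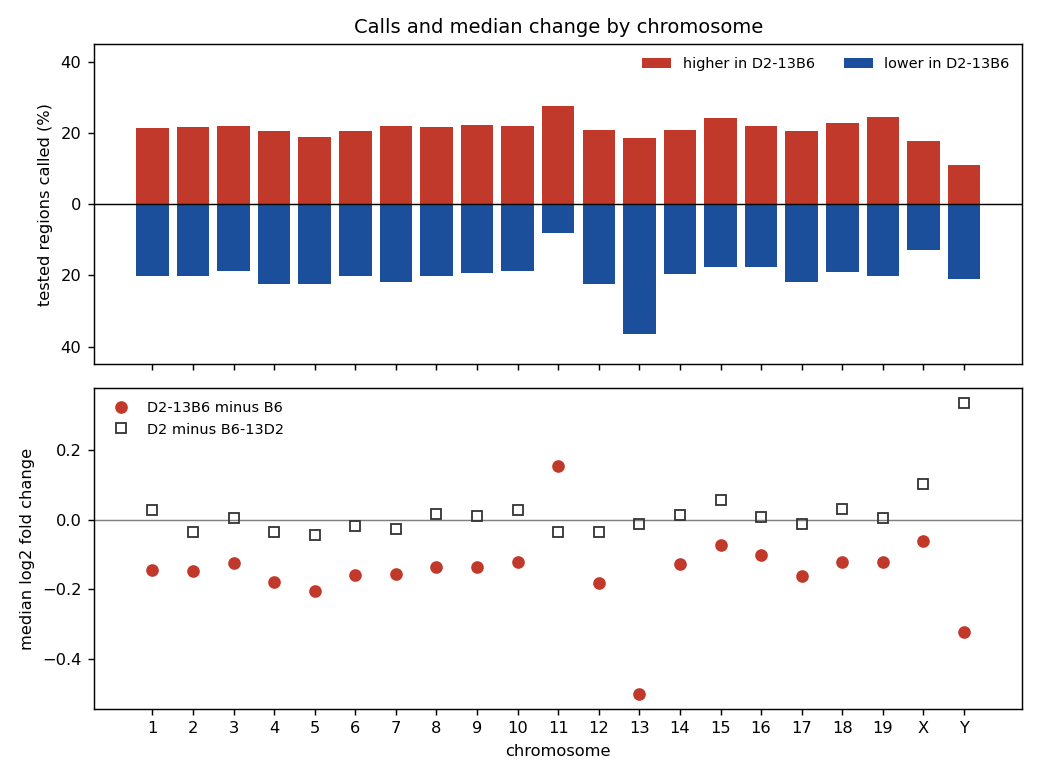
By chromosome (x axis), the upper panel gives the percent of tested regions called higher (bars up) and lower (bars down) in D2-13B6 than in B6, and the lower panel the median log2 fold change of D2-13B6 minus B6 (filled points) and of D2 minus B6-13D2 (open squares). Chromosome 13 has the lowest filled point, -0.50, and chromosome 11 is the single one above 0, at 0.15.

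On the other 17 autosomes taken 1 at a time the share of regions called ran from 39.4% on chromosome 16 to 44.9% on chromosome 19, and the median log2 fold change from -0.21 on chromosome 5 to -0.07 on chromosome 15. Chromosome X had 30.6% called and a median of -0.06.

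Single regions that became accessible in D2-13B6 lay mostly in introns and between genes. In an intron of Wdr70, which encodes a WD-repeat protein, the region at chr15:7877565-7878485 had 4.72, 4.51 and 4.29 CPM in the B6 libraries and 30.1, 46.4 and 28.6 in the D2-13B6 libraries. B6-13D2 had 4.87 and 5.08, and D2 had 13.3, 14.7 and 14.04. All D2-13B6 libraries were above all D2 libraries, which were above all others. The log2 fold change from B6 to D2-13B6 was 2.96 (SE 0.19, edgeR adjusted p = 3.72e-20), and from B6-13D2 to D2 it was 1.49; the difference between these was 1.46 (edgeR adjusted p = 0.00094).

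The region 19770 bp from the start of Trhr, the thyrotropin-releasing hormone receptor, at chr15:44175953-44176365, held 1.13, 1.34 and 1.36 CPM in B6. The D2-13B6 libraries had 13.1, 14.6 and 10.5, those of B6-13D2 1.73 and 1.44 and those of D2 4.36, 5.33 and 5.82. The order of the lines was that at Wdr70, with no overlap between D2-13B6 and D2. This is a log2 fold change of 3.33 (SE 0.21, edgeR adjusted p = 4.89e-20). In an intron of Vgll3, a cofactor of TEAD transcription factors, at chr16:65818704-65819322, B6 had 3.63, 2.26 and 3.76 CPM, B6-13D2 3.78 and 3.54, D2-13B6 22.7, 35.8 and 24.6 and D2 10.6, 12.3 and 12.3. Its log2 fold change was 3.08 (edgeR adjusted p = 4.07e-20). Asap1, which encodes a GTPase-activating protein for ARF, held an intronic region (chr15:64363878-64364781) that rose by a log2 fold change of 3.01. So did one 54441 bp from the start of Cd44, the hyaluronan receptor (chr2:102956106-102957411), by 3.04.

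Among promoters of protein-coding genes, the smallest p-values of higher regions were at Prkg2, Glis3 and Eps8. At Prkg2, a cGMP-dependent protein kinase (chr5:98943724-98944234), B6 had 2.53, 2.38 and 2.85 CPM, B6-13D2 2.27 and 2.94, D2-13B6 17.8, 25.6 and 15.7, and D2 7.39, 8.06 and 7.65. The means of B6 and D2-13B6 were 2.58 ± 0.238 and 19.7 ± 5.25 (SD, n = 3 each), a log2 fold change of 2.92 (SE 0.20, edgeR adjusted p = 1.85e-19). At Glis3, a zinc finger transcription factor (chr19:28283667-28284629), the mean went from 2.24 ± 0.225 to 17.3 ± 4.23 CPM, and at Eps8, an adaptor of receptor tyrosine kinases and actin (chr6:137519761-137520474), from 4.26 ± 0.218 to 28.2 ± 7.22 (SD, n = 3 each). In D2-13B6 the second replicate was the highest of the 3 at each of the 8 regions named in these paragraphs.

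On chromosome 11, where the whole chromosome was higher, the regions with the smallest p-values were in an intron of Ehbp1 (1.47 to 15.8 CPM, log2 fold change 3.46) and 23710 bp from Igfbp3, an insulin-like growth factor binding protein (2.93 to 21.2 CPM, 2.86). On chromosome 13, where it was lower, they were 23607 bp from Klf6, a zinc finger transcription factor (6.36 to 40.1 CPM, 2.66), and in an intron of Sv2c, a synaptic vesicle protein (6.59 to 41.6 CPM, 2.66). On chromosome X a region 42826 bp from Eif2s3x went from 2.06 to 15.2 CPM, a log2 fold change of 2.89.

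Among the 18 motifs searched, AP-1's letters were far more frequent in the gained distal regions than in distal regions as a whole. Among regions farther than 1000 bp from a start site, off chromosomes 11 and 13, TGANTCA lay in the central 300 bp of 63.6% of the 10677 regions higher by 4-fold or more. It lay in 39.2% of all regions higher, 9.72% of those not called, 7.04% of those lower, 4.42% of those lower by 4-fold or more and 14.6% of all. Both strands read these letters alike, and a match is a description of the reference sequence, not a bound site. Of the windows shown first, the one at Wdr70 has TGATTCA and the others TGAGTCA or TGACTCA.

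The 27152 distal regions with the motif had a median log2 fold change of 0.63, and 49.6% of them were higher; those without had a median of -0.24, with 13.2% higher and 22.3% lower. The share rose with the number of matches: 13.2% of 158406 regions with 0 matches, 44.9% of 23635 with 1, 80.3% of 3149 with 2 and 91.3% of 368 with 3 or more were higher, with medians of -0.24, 0.43, 2.05 and 2.31. In classes of mean abundance that each hold 10% of regions, 6.26% to 66.9% of regions with the motif and 2.45% to 26.1% of those without were higher. Matches gathered at the centre of regions. In the central bins of 20 bp, regions higher by 4-fold or more had 10.3 matches per 100 regions per bin, against 0.767 farther than 300 bp from the centre. Regions not called had 0.734 and 0.615.

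**Figure D3:**
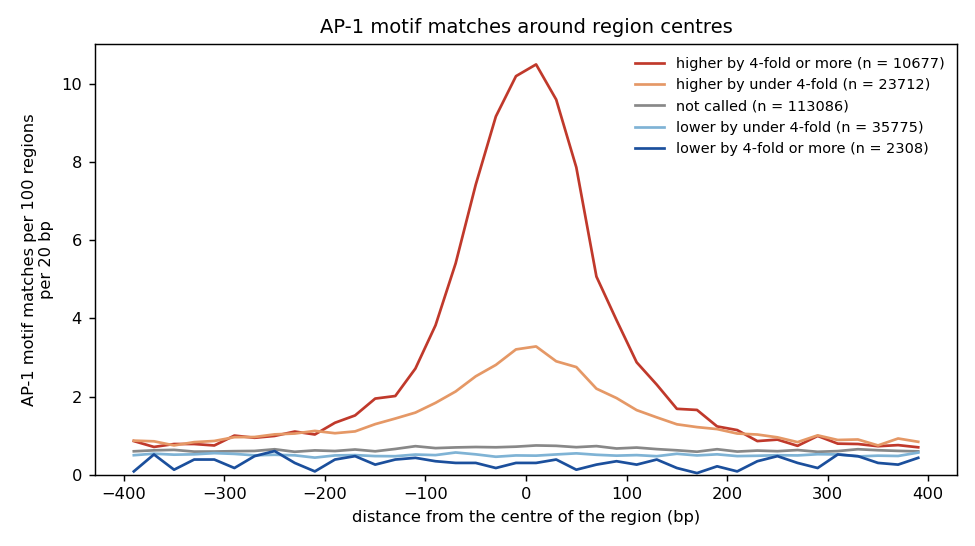
Matches of TGANTCA per 100 regions in bins of 20 bp (y axis) by distance from the centre of the region in bp (x axis), for distal regions off chromosomes 11 and 13 by class of change. Regions higher by 4-fold or more peak at the centre, and regions not called stay nearly flat.

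By library, regions with an AP-1 match away from start sites took 12.4% to 12.7% of distal counts in B6, 12.4% in both B6-13D2 libraries, 15.9% to 16.7% in D2 and 21.5% to 25.1% in D2-13B6. D2-13B6 did not overlap D2, and neither overlapped the lines of C57BL/6J background. Other motifs moved less. The TEAD letters GGAATGT lay in 11.1% of distal regions higher by 4-fold or more against 7.07% of all, and the RUNX letters TGTGGTTT in 5.98% against 2.74%.

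Letters of pluripotency factors were less frequent in higher distal regions than in all distal regions, while their shares in lower regions were closer to those in all. The octamer ATGCAAAT lay in 1.89% of higher, 3.74% of lower, 3.93% of not called and 3.51% of all distal regions, and regions with it had a median log2 fold change of -0.29. ESRRB's TCAAGGTCA lay in 0.614% of higher, 1.75% of lower, 1.61% of not called and 1.45% of all, with a median of -0.35. The SOX letters ACAATGG lay in 4.91% of higher, 6.57% of lower, 7.06% of not called and 6.56% of all. The KLF letters GGGTGTGG lay in 4.16%, 6.73%, 6.41% and 6.06%. In regions lower by 4-fold or more the shares were below those in all as well, at 2.86% for the octamer, 0.303% for ESRRB, 3.03% for SOX and 2.47% for KLF. The CTCF letters CAGNGGGC lay in 7.43% of higher, 6.21% of lower and 6.86% of all distal regions. In those higher by 4-fold or more their share was below that in all, at 4.36%, and in those lower by 4-fold or more it was 3.90%.

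The deepest losses lay in repeats and in a few gene clusters, and several of those named here were mostly not repeat sequence. The region with the smallest p-value, 10258 bp from Gm14409 at chr2:177277294-177278309, had 16.8, 19.3 and 20.6 CPM in B6 and 19.5 and 21.5 in B6-13D2, against 0.156, 0.333 and 0.344 in D2-13B6 and 0.156, 0.214 and 0.115 in D2. Both DBA/2J-background lines were near 0 in every library. From B6 to D2-13B6 this is a log2 fold change of -6.11 (SE 0.25, edgeR adjusted p = 1.21e-29) and from B6-13D2 to D2 -6.94; the difference between these did not pass. At the promoter of Gm14412 nearby (chr2:177323991-177325111), B6 had 9.38, 11.9 and 12.3 CPM, B6-13D2 13.5 and 15.2, D2-13B6 0.234, 0.303 and 0.481, and D2 0.259, 0.562 and 0.630. Its log2 fold change was -5.06 (edgeR adjusted p = 1.68e-24), and that of a region 4964 bp away (chr2:177329271-177330671) was -5.11.

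The promoter of Trim12a, a member of the TRIM family (chr7:104298742-104300894), went from 15.9 ± 0.56 to 1.90 ± 0.0779 CPM (SD, n = 3 each), a log2 fold change of -3.06, and that of Gm21863 (chr12:19953526-19955592) from 14.6 to 1.80. Regions within 2410018L13Rik (chr12:23001426-23002640) and 5730507C01Rik (chr12:18523468-18525090) fell from 18.3 to 0.405 and from 14.2 to 0.743 CPM. A region 8681 bp from Ier2, an immediate early gene (chr8:84652186-84654171), fell from 18.1 to 1.23 CPM, and one in an intron of Kdm4c, a histone H3K9 demethylase (chr4:74367287-74368622), from 14.4 to 0.791. The last 2 regions are soft-masked, that is marked as repeat in the reference, over 64.4% and 83.5% of their bases. The lower regions named before them were masked less. The share was 22.1% near Gm14409, 5.08% at the Gm14412 promoter and 18.5% at its neighbour. It was 28.1% at Trim12a, 12.3% at Gm21863, 49.2% in 2410018L13Rik and 44.8% in 5730507C01Rik. On chromosome 11, a region 4447 bp from the start of Gm23311 fell from 9.78 to 0.577 CPM. Its nearest coding gene, 62272 bp away, is Nlrp1b, an inflammasome sensor. One in an intron of Ncor1, a corepressor, fell from 10.8 to 1.11 CPM. On chromosome 13, a region 4014 bp from Tcrg-C3 fell from 11.1 to 0.534 CPM and one near Gm47746 from 7.36 to 0.397, soft-masked over 83.3% and 87.7%. Near Mid1, a ubiquitin ligase, chromosome X had a fall from 16.3 to 2.73 CPM, in a region soft-masked over 2.20%.

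On chromosome Y the region at chrY:90725133-90735224 rose from 20.5 ± 3.99 to 115 ± 26.0 CPM (SD, n = 3 each) and D2 had 261, 270 and 254, so that D2 exceeded D2-13B6. A region within Gm47283 (chrY:90806682-90809717) fell from 235 ± 77.0 to 15.5 ± 2.96 CPM (SD, n = 3 each).

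Repeats marked the lower regions by amount. Off chromosomes 11 and 13, of regions wholly soft-masked 34.7% were lower, 18.4% lower by 4-fold or more and 3.58% higher; of regions with no soft-masked base 0.28% were lower by 4-fold or more. The 2501 regions lower by 4-fold or more were soft-masked over a median of 84.3% of their bases, against 8.36% in those higher by 4-fold or more. In 335 regions called lower no D2-13B6 library had more than 3 counts, and in 23 regions called higher no B6 library had. How reads that fit several places were treated is not given in the sources used here, and reads were placed on a C57BL/6J reference. Neither point was tested.

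The YY1 letters CAAGATGGC lay in 24.4% of distal regions lower by 4-fold or more, 563 of 2308, against 3.89% of all lower, 0.640% of higher and 1.93% of all. These 563 regions were soft-masked over a median of 100% of their bases, and 55.1% of them were masked throughout. Over all 3574 distal regions with the letters, 1480 were lower and 220 higher, with a median of -0.65 here and -0.11 for D2 minus B6-13D2. The same flanks recurred around the motif: the most frequent single stretch, with 6 bases on either side, was in 227 of the 563, and the next 2 were in 105 and 73. Of all 639 regions with the first of these, 396 were lower and 4 higher, with a median of -1.22. The 396 include the 227 lower regions by which the stretch was chosen, which enlarges that count. Of all 185558 distal regions tested, 38083 were lower and 34389 higher. These flanks were looked for after the values were seen. In the windows printed above, the region at Gm37386 had 5.79, 6.59 and 6.96 CPM in B6 and 0.649, 0.303 and 0.653 in D2-13B6, and B6-13D2, at 1.23 and 1.89, lay between. At Gm43383 B6 had 5.12, 5.92 and 6.04 CPM, B6-13D2 2.46 and 2.04, and D2-13B6 0.208, 0.545 and 0.516. The log2 fold changes were -3.57 and -3.77.

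Losses of 4-fold or more were dense in a few 2 Mb bins. On chromosome 4 at 112 to 114 Mb they took 31 of 57 regions (54.4%). In D2 against B6-13D2, 50.9% had a change of that size, and the median log2 fold change of the bin was -2.34. On chromosome 7 at 20 to 22 Mb they took 40.0%, on chromosome 14 at 42 to 44 Mb 34.6%, on chromosome 12 at 22 to 24 Mb 30.5%, and on chromosome 2 at 176 to 178 Mb, which holds Gm14409 and Gm14412, 23.2%. At 146 to 148 Mb of chromosome 4 they took 60 of 305 (19.7%).

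Regions near gene starts were more often higher than others. Within 1000 bp of an annotated start 37.1% were higher and 17.4% lower, with a median of 0.14. Over a start site 47.6% were higher and 15.2% lower (median 0.38), between genes 17.4% and 20.8% (-0.19), and within genes away from starts 19.5% and 20.3% (-0.17). The same gradient ran with abundance: the most abundant 10% of regions had 51.8% higher, 20.3% lower and a median of 0.45, and the least abundant 10% had 2.81% higher, 14.6% lower and a median of -0.31. Near starts the split was 29.2% higher and 32.2% lower with total counts and a median of -0.17. With offsets that follow abundance (loess) it was 28.8% and 22.3%, with a median of 0.02.

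For each protein-coding gene, the region at its annotated 5' end stood for its promoter. Openness of a promoter is not expression. Of 14871 such regions 9057 were higher (60.9%) and 1239 lower (8.33%), with a median of 0.61; the median was 0.29 with total counts and 0.21 with loess offsets. The middle 50% of promoters lay between 0.07 and 0.89. For D2 minus B6-13D2 the median over the 14871 regions was 0.40, with 5010 higher and 304 lower. Every list below is to be read against this background.

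The promoters of the core pluripotency genes were lower against that background. At Pou5f1, which encodes OCT4 (ENSMUSG00000024406.16, chr17:35501875-35507508), B6 had 65.6, 78.6 and 67.9 CPM and D2-13B6 31.2, 37.6 and 35.8. B6-13D2 had 64.6 and 69.9, and D2 had 59.8, 62.5 and 49.97. D2-13B6 stood below all other lines without overlap. From B6 to D2-13B6 it changed by -1.02 on the log2 scale (SE 0.17, edgeR adjusted p = 6.29e-07), that from B6-13D2 to D2 was -0.23 and did not pass, and the difference between them was -0.79 (edgeR adjusted p = 0.042).

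Nanog, a homeobox factor of the same network, had 20.4, 21.3 and 24.2 CPM in the B6 libraries and 11.9, 12.5 and 11.4 in those of D2-13B6. The libraries of B6-13D2 had 23.2 and 23.9 and those of D2 21.5, 17.6 and 19.8. Again only D2-13B6 stood apart. Its log2 fold change was -0.88 (edgeR adjusted p = 8.58e-06). It was not called against a minimum fold of 1.5 (edgeR adjusted p = 0.0522). Sox2 had 30.4, 30.6 and 30.9 CPM in B6 and 27.8, 26.8 and 22.9 in D2-13B6, a log2 fold change of -0.24 that did not pass (edgeR adjusted p = 0.241); it passed with total counts (-0.54) and with loess offsets (-0.79). Around these 3 genes, within 50 kb and away from start sites, 1 of 38 regions was higher and 19 were lower, against 21112 (19.1%) and 23569 (21.3%) of 110505 around all protein-coding genes. One region about 15.7 kb upstream of Pou5f1 (chr17:35489278-35491383) fell from 17.8 to 1.68 CPM, a log2 fold change of -3.42, and the single higher one, upstream of Nanog, rose from 8.78 to 19.2, 1.13. Both were picked after their values were seen.

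Of 19 promoters of naive pluripotency genes, 13 were lower and 5 higher, with a median of -0.57 (-0.87 with total counts, -0.95 with loess offsets). For D2 minus B6-13D2 their median was -0.03, with 4 higher and 3 lower. Tcl1, a cofactor of AKT kinases, had 8.82, 11.3 and 10.4 CPM in B6 and 4.18, 3.97 and 3.99 in D2-13B6, a log2 fold change of -1.32. Dppa3, which protects methylation in the zygote, fell by 1.06 on the log2 scale, and Tdh, a threonine dehydrogenase of embryonic stem cells, by 0.95. Lower by less were Prdm14 (-0.89), Lin28a (-0.84), Dppa5a (-0.80) and Tfcp2l1 (-0.76). Stat3, the effector of LIF signals, rose from 32.0 to 69.6 CPM (1.12) and lies on chromosome 11. Klf4 (0.80) and Tbx3 (0.76) also rose, but with loess offsets Klf4 was at 0.10 and Tbx3 at 0.02, neither called. Away from starts, 124 of 312 regions around the naive genes were lower (39.7%) and 30 higher (9.62%). Around all protein-coding genes 21.3% were lower and 19.1% higher. For D2 minus B6-13D2, 46 of the 312 were lower and 21 higher, against 8871 and 10552 of 110505. The 124 include the windows shown above at Klf4 (2.50 to 1.15 CPM), Tfcp2l1 (8.78 to 4.40) and 30158 bp from Klf2, in Eps15l1 (5.54 to 2.66). For D2 minus B6-13D2 these windows had log2 fold changes of -1.25, -0.91 and -0.30, the last not called.

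**Figure D4:**
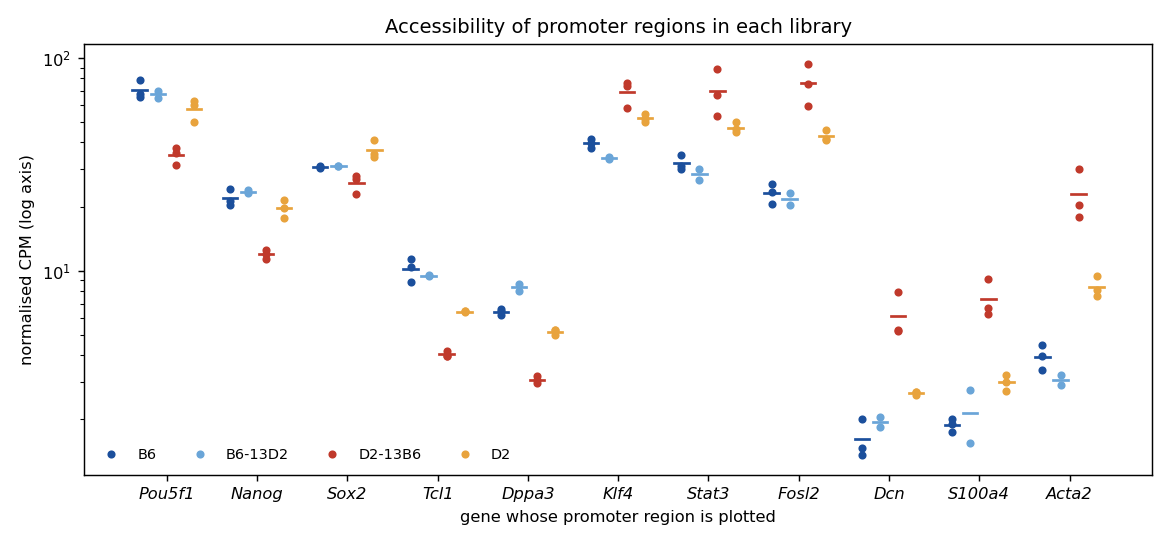
Normalised CPM (y axis, log scale) of the promoter regions of 11 named genes (x axis), with a point for each library coloured by line and a bar at the mean of the line. At Pou5f1 and Nanog the 3 D2-13B6 libraries lie below the libraries of the other lines; at Dcn, S100a4, Acta2 and Fosl2 they lie above.

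Promoters of genes of later states did not rise as a group. In the formative and primed list 4 of 19 were higher and 4 lower, with a median of -0.07 (-0.36 with total counts, -0.34 with loess offsets). Otx2, a homeobox factor of the primed epiblast, had 11.1, 12.6 and 10.3 CPM in B6 and 4.62, 5.88 and 5.30 in D2-13B6 with 9.03, 8.22 and 8.97 in D2, a log2 fold change of -1.11. Lefty1, a NODAL antagonist, was at -0.97 and lower, and Sox4 (0.94) and Etv5 (0.91) were higher, Etv5 not with loess offsets (0.18). Fgf5, a ligand of the primed epiblast, was higher at 0.53, though not with total counts or without replicate 2 of either line, and Wnt8a lower at -0.65. Primitive streak promoters had 0 higher and 4 lower of 15, with a median of -0.05 (0.02 with RLE factors, -0.36 with total counts, -0.23 with loess offsets). Neural promoters had 0 and 3 of 14 (0.04, but -0.27 with total counts and -0.24 with loess offsets). Trophoblast promoters had 1 and 4 of 13, with a median of -0.31 (-0.62 with total counts, -0.59 with loess offsets). Primitive endoderm promoters had 3 and 1 of 9, with a median of -0.03 (0.04 with RLE factors, -0.34 with total counts, -0.32 with loess offsets). Gata6, an endoderm factor, was at 0.65 and Col4a1, a basement membrane collagen, at 0.64, both called higher but not with loess offsets. Sparc, a matrix protein gene on chromosome 11, was called higher at 0.62, but not with total counts, with that chromosome centred or without replicate 2 of D2-13B6. Foxa2, an endoderm forkhead factor, was called lower at -0.46, but not with RLE factors, with the contrast's libraries alone or without replicate 1 of B6. Of trophoblast genes, the keratins Krt8 (-0.74) and Krt18 (-0.80) were lower and Tead4 (0.62) higher, Tead4 not with loess offsets. Evx1, a streak homeobox gene, was lower at -0.75, and Pax6, a neural one, at -0.61. Cdx2, the trophectoderm homeobox factor, fell by 1.09 on the log2 scale, and Msgn1, of the presomitic mesoderm, by 0.98. Olig2 and Neurog1, neural basic helix-loop-helix factors, were both at -0.91, and Neurog1 lies on chromosome 13, which was lower as a whole. Promoters of genes of the 2-cell-like state had 1 higher and 1 lower of 8, with a median of -0.33. The higher one was Zfp809, at 0.79, a call lost with loess offsets. The lower one, Duxf3 at -0.44, lost its call with RLE factors, with the contrast's libraries alone, without any 1 library of B6 and without replicate 1 or 2 of D2-13B6.

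Fibroblast genes, which would mark feeder cells, had the highest median of the 20 lists. Of 12 promoters, 11 were higher and 0 lower, with a median of 1.16 (0.85 with total counts, 0.94 with loess offsets); Thy1, at 0.40, did not pass. Col3a1, Postn and Lum, 3 defining fibroblast genes, had no region within 1000 bp of their start. At Acta2, smooth muscle actin (chr19:34255149-34255922), the B6 libraries had 3.39, 4.45 and 3.98 CPM, B6-13D2 3.23 and 2.89, D2-13B6 17.9, 30.0 and 20.4, and D2 8.12, 9.40 and 7.59. Its log2 fold change was 2.54 (edgeR adjusted p = 6.11e-18). At Dcn, the matrix proteoglycan decorin (chr10:97479338-97479898), B6 had 1.46, 2.01 and 1.36 CPM, D2-13B6 5.25, 7.94 and 5.23 and D2 2.59, 2.68 and 2.69, a log2 fold change of 1.96. The collagen genes Col1a1 and Col1a2 were at 1.33 and 1.15.

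The summed level of the 12 promoters was 112 to 124 CPM in B6, 96.7 to 109 in B6-13D2, 144 to 160 in D2 and 231 to 316 in D2-13B6. It was highest in D2-13B6 and next in D2, as the AP-1 share above was. Core pluripotency promoters summed to 70.1 to 76.9 CPM in D2-13B6, 105 to 122 in D2, 116 to 130 in B6 and 119 to 125 in B6-13D2. Naive promoters summed to 494 to 671, 572 to 619, 547 to 567 and 538 to 566 CPM in the same order. Only the core sum of D2-13B6 stood below the other lines. The part of the fibroblast signal in the AP-1 share and at pluripotency promoters was not tested. In bulk libraries, fewer cells of a type and less open DNA per cell cannot be told apart. Around the fibroblast genes and away from starts, 68 of 167 regions were higher and 20 lower. Of the 110505 such regions around all protein-coding genes, 21112 were higher (19.1%) and 23569 lower (21.3%).

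AP-1 and stress genes rose at 18 of 19 promoters, with a median of 0.97 (0.65 with total counts); with loess offsets the median was 0.34, with 13 higher and 3 lower. Fosl2, a FOS family member (chr5:32134760-32137019), had 20.5, 23.5 and 25.7 CPM in the B6 libraries and 20.3 and 23.1 in those of B6-13D2. The D2-13B6 libraries had 75.1, 93.9 and 59.3 and those of D2 45.9, 41.2 and 41.5. The lines did not overlap apart from B6 and B6-13D2. Its log2 fold change was 1.72 (edgeR adjusted p = 4.82e-13). Fos rose from 28.7 to 70.1 CPM (1.29), Jund by 1.23 and Jun by 1.17 on the log2 scale. Junb, at 1.09, lost its call with loess offsets (0.18). Hsp90aa1, a chaperone gene, was at 0.26 and did not pass. Housekeeping promoters were close behind, with 24 of 29 higher and 0 lower (median 0.83, 0.51 with total counts and 0.33 with loess offsets). The AP-1 list thus exceeded the median over all promoters, 0.61, by little more than the housekeeping list did. B2m and Gusb were both at 1.23.

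**Figure D5:**
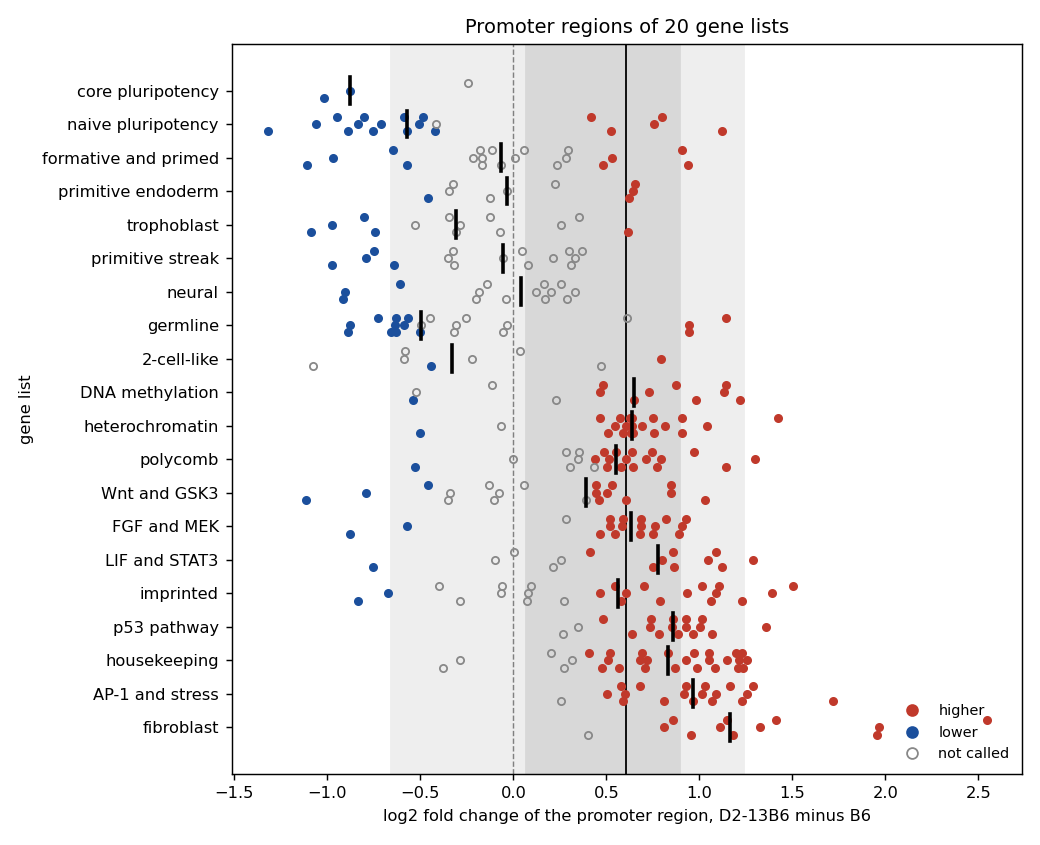
Log2 fold change of D2-13B6 minus B6 (x axis) at the promoter of each gene of 20 lists (rows), with called genes filled by direction, genes not called open and list medians as bars. The vertical line is the median over all coding promoters, 0.61, and the shading covers their middle 50% and 90%.

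The next lists hold the pathways that LIF and the inhibitors in the medium act on. Of LIF and STAT3 promoters 9 of 14 were higher and 1 lower (median 0.78, 0.05 with loess offsets), and of FGF and MEK promoters 15 of 18 and 2 (0.63, but -0.01 with loess offsets). Higher were Etv5, Phlda1 (0.93) and Spred2 (0.89, on chromosome 11), targets or brakes of that pathway. Lower were Fgfr1, its receptor (-0.88), and Fgf4, a ligand (-0.57). Of Wnt and GSK3 promoters 9 of 19 were higher and 3 lower (0.39, but -0.14 with loess offsets). Apc, a scaffold that degrades beta-catenin (1.03), rose, as did Znrf3 (0.85, on chromosome 11), which removes Wnt receptors from the membrane. Fzd7, a Wnt receptor, was called higher at 0.85, but not with loess offsets. Cdx1 (-1.12) and T (-0.79), targets of the pathway, fell. Sp5, another target, was called lower at -0.46, but not with RLE factors, with the contrast's libraries alone, without replicate 1 or 3 of B6 or without replicate 1 of D2-13B6.

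Lists of chromatin regulators rose about as far as promoters in general. DNA methylation genes had 9 of 13 higher and 1 lower (median 0.65, 0.10 with loess offsets), with Tdg, a DNA glycosylase, at 1.22 and Mbd1, a methyl-CpG binding protein, at 1.14, Apobec1, a cytidine deaminase, at 1.13, and with Dnmt3l, a cofactor of the de novo methyltransferases, lower at -0.54. Heterochromatin genes had 19 of 21 higher and 1 lower (0.64, 0.22 with loess offsets); Suv39h1, an H3K9 methyltransferase, rose by a log2 fold change of 1.42, Smchd1 by 1.04 and Ehmt2, another H3K9 methyltransferase, by 0.91. Trim28, the corepressor of KRAB zinc finger proteins, was at -0.50 and lower, a call that was lost with RLE factors, with DESeq2, with thinned counts and without replicate 1 or 3 of B6, 1 or 2 of D2-13B6 or 1 of D2. Polycomb genes had 16 of 23 higher and 1 lower (0.55, 0.15 with loess offsets). Bmi1, a subunit of the repressive complex that ubiquitinates histone H2A, was at 1.14. Cbx8, on chromosome 11, was at 0.97, and Cbx7 was lower at -0.53. Fitting the libraries of the contrast alone ended the calls of Trim28, Cbx7, Dnmt3l and Fgf4. Cbx7 also lost its call without replicate 3 of B6 (edgeR adjusted p = 0.0723) and Dnmt3l without replicate 1 of D2-13B6 (0.0614). Fgf4 lost it without replicate 2 of B6 (0.0731) and without replicate 1 of D2-13B6 (0.108). Genes of the p53 pathway had 15 of 17 higher and 0 lower (0.86, 0.26 with loess offsets), with the death receptor Fas at 1.36, Eda2r, another receptor, at 1.07 and Btg2 at 1.01.

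Germline genes that DNA methylation silences went the other way in D2-13B6 against B6. Of 21 promoters 10 were lower and 3 higher, with a median of -0.50 (-0.79 with total counts, -0.52 with loess offsets). For D2 minus B6-13D2 their median was 0.24, with 2 higher and 0 lower. Sycp3, of the synaptonemal complex, and Ddx4, a germ cell helicase, were at -0.89 and -0.88, and Brdt, a testis bromodomain protein, at -0.73. Ddx4 lies on chromosome 13, where the median over all regions was -0.50. Over all settings its change ran from -1.17 to -0.57. Tdrkh, Dazl and Zcwpw1 were higher, at 1.14, 0.95 and 0.94. Imprinted genes had 14 promoters higher and 2 lower of 24 regions, 2 of which serve a pair of genes each (median 0.56, 0.27 with loess offsets). Inpp5f (1.5), the noncoding RNAs Meg3 (1.39) and Airn (1.23) rose, and Plagl1 (-0.84) and Gnas (-0.68) fell.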

How the data were processed

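ATAC-seq was done on 4 mouse embryonic stem cell lines in 11 libraries with reads of 150 bp. The authors deposited raw counts per region for each library, and per the file headers duplicates and mitochondrial reads had been removed. Per the submitters' processing notes, mm10 (GRCm38), Trimmomatic 0.39, BWA 0.7.5, Picard 2.0.1, MACS 1.4.2, bedtools 2.9.2 and edgeR 3.34.1 were used; their order and settings are not given in the sources used here. Region coordinates are printed as the table lists them.

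Counts of all 11 libraries were fitted together, 1 coefficient per line, with edgeR 4.0.16 in R 4.3.3: filterByExpr, TMM factors, a robust quasi-likelihood fit, and Benjamini-Hochberg adjustment over the 246840 regions tested (threshold 0.05). Of the 248336 regions, 257 had no count. The fit was run on simulated counts with 2-fold changes at a small share of regions, balanced in direction. They held no shift of whole chromosomes, so this run cannot show how TMM factors behave on changes as wide as these. Normalised CPM are counts scaled to the TMM-scaled library size, and at most 3 counts per library was taken as the floor of detection. The log2 CPM behind the classes of mean abundance use a prior count of 2. Genes and starts are from GENCODE M21, a promoter is within 1000 bp of a start, and motifs were searched on both strands of the central 300 bp. Soft-masked bases are those in lower case in the reference. Single values per library were compared by exact permutation tests.

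Named regions were those with the smallest p-values whose libraries did not overlap: 3 higher and 3 lower each among coding promoters, among other regions, and among regions with at least 10 counts in every library, off chromosomes 11, 13, X and Y; 2 and 2 on chromosome 11 and on 13; 1 and 1 on X and Y. In each gene list the called genes with the smallest p-values were named, up to 3 in each direction, and every core pluripotency gene; other genes named were picked after their values were seen, and a few that the rule names are not reported here. The comparison, gene lists and motifs were chosen with earlier results of these data known. Replicate numbers are shared between lines, but same-numbered libraries did not deviate together (correlations of -0.049 to 0.066 in 3 pairs), so the numbers do not pair them. Alternatives changed the scaling (RLE factors, total counts, TMM without chromosomes 11, 13, X and Y, loess offsets, centring), the filter, the libraries fitted, the tool (DESeq2 1.42.0), a minimum fold of 1.5, the depth, and left out each library.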

Additional observations from a re-analysis of the deposited data

Results flagged for a closer look

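The background difference differed between the 2 pairs of lines, by the test of the difference itself (edgeR adjusted p under 0.05), at 16142 regions; line and interval cannot be told apart. The values below are the log2 fold change of D2-13B6 minus B6, less that of D2 minus B6-13D2. Among regions higher in D2-13B6 they were 1.36 at Prkg2, 1.46 at Glis3, 1.38 at Eps8, 1.61 near Cd44, 1.46 at Wdr70, 1.39 at Vgll3, 1.63 near Trhr, 1.46 at Asap1, 1.88 at Ehbp1, 0.90 at Sv2c and 1.74 near Eif2s3x. Each of these had the larger rise between D2-13B6 and B6.

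Among regions lower in D2-13B6 the value was 1.20 at Trim12a, 1.43 near Gm14412, 1.23 near Ier2 and 1.33 at Ncor1, where the loss was deeper between D2 and B6-13D2, and -1.65 at Gm37386, where it was deeper between D2-13B6 and B6. It was -1.48 for the region on chromosome Y nearest to Gm21860.

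At promoters, the value was -0.79 at Pou5f1, -1.0 at Otx2, -0.88 at Cdx2, -0.88 at Neurog1, -0.96 at Cdx1, -1.11 at Ddx4 and -0.98 at Brdt, which were lower in D2-13B6 than in B6. It was 1.51 at Dcn, 1.48 at S100a4, 1.09 at Acta2, 0.92 at Apobec1 and 0.82 at Fos, which were higher. In a region upstream of Tbx3, away from its start, it was -0.93. Neurog1 and Ddx4 lie on chromosome 13. The median over that chromosome was -0.50 for D2-13B6 minus B6 and -0.01 for D2 minus B6-13D2.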

How the results depend on the processing

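Calls for D2-13B6 against B6 numbered 102971, and 97693 with RLE factors, 92603 with DESeq2 and 102116 with chromosomes 11 and 13 centred. With total counts 85687 regions were lower in all, 76472 off chromosomes 11 and 13 and 3146 on chromosome 11; 90 list genes were lower (50 in the report's setting, with 169 higher), and the AP-1 motif lay in 66.3% of distal regions higher by 4-fold or more and 7.54% of those lower. With loess offsets 98 list genes were higher and 96 lower. Against a minimum fold of 1.5 the calls were 48265 (33005 higher, 15260 lower), 42122 off chromosomes 11 and 13 (29087 and 13035), 2658 on chromosome 11 (2420 and 238) and 3485 on chromosome 13 (1987 lower); D2 against B6-13D2 had 13723 and the interaction 975; list genes had 70 higher and 12 lower, and 6.40% of lower regions had the AP-1 motif. Centring gave 2934 lower on chromosome 11 and 2607 on 13. In the central 150 bp the AP-1 shares were 50.8% and 3.5%. Regions near starts called higher were 38.6% with RLE factors, 29.2% with total counts, 28.8% with loess offsets, 38.4% with DESeq2, 16.8% against the minimum fold, 35.5% with thinned counts and 43.9% within 250 bp.

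Without 1 library at a time the calls ran from 88675 to 108326 (higher 47378 to 56505, lower 40235 to 51821), off chromosomes 11 and 13 from 78235 to 95635 (41525 to 49702 and 35633 to 45933), on chromosome 11 from 4841 to 5959 (3842 to 4463 and 984 to 1496) and on 13 from 5599 to 6732 (1903 to 2340 and 3582 to 4392). D2 against B6-13D2 ran from 24644 to 54244 and the interaction from 4743 to 29017, list genes from 145 to 193 higher and 38 to 52 lower, AP-1 shares from 62.7% to 64.7% and 6.89% to 7.06%, and near starts from 33.2% to 40.8%. With the replicate number as a block there were 104114 calls, 14154 for the interaction and 49985 for D2 against B6-13D2; the block changed no count by over 1.5 times. Over the named regions and genes and all settings, 2564 values kept their side of the threshold, 79 lost their call (33 of them against the minimum fold of 1.5), 2 gained one and 0 reversed. Regions within 50 kb of genes, AP-1 shares by abundance and YY1 flanks were added after seeing the data. Of the least abundant 10% of regions, 2.81% were called higher and 14.6% lower.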
